A study of Homo sapiens with 6 samples.

Results

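HELLS, the other genes of ICF syndrome (immunodeficiency, centromeric instability and facial anomalies) and CDCA7L were examined at the transcript level in cells with and without HELLS. The genes were HELLS, CDCA7, CDCA7L, ZBTB24 and DNMT3B, taken by matching the Ensembl identifiers of the count table, without their version, to these symbols. All 5 were found, among 60483 gene rows of which 56321 carried a symbol. The question was whether the transcripts of the partners change when the HELLS protein is lost.

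HELLS is a chromatin remodeller of the SNF2 family that is needed for DNA methylation of repeats, pericentromeric satellites among them. CDCA7 is a zinc-finger protein that brings HELLS to nucleosomes and stimulates its remodelling, and CDCA7L is its paralog, known as a partner of MYC and of PSIP1 (LEDGF). ZBTB24 is a zinc-finger transcription factor that activates CDCA7, and DNMT3B is a DNA methyltransferase that sets new methylation marks. Recessive mutations of DNMT3B, ZBTB24, CDCA7 or HELLS each cause the syndrome, whereas CDCA7L has no such role known.

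RNA was sequenced from HAP1 cells, a near-haploid line derived from a chronic myeloid leukemia, and from HELLS KO, 1 purchased HAP1 clone edited to carry an insertion of 1 base in exon 3 of HELLS. HAP1 was wild-type, labelled as clone C631, and both were collected under normal growth without any drug, as 3 libraries each. The libraries are called biological replicates, but separate cultures are not described, so p-values measure the spread between these libraries. With 1 clone on each side, the loss of HELLS and other differences between the clones cannot be told apart. Replicate 3 of both genotypes carries a batch label that replicates 1 and 2 do not. Library totals ran from 13641237 to 24400187 counts, the deepest being the replicate 3 of each genotype, and a count of 3 corresponded to 0.123 to 0.220 CPM (counts scaled to the library total). Of 13 blood markers read for the labelled leukemic origin, BCR, ABL1, RUNX1, TAL1 and KIT were expressed. TAL1 was at 93.4 CPM in HAP1 and 80.3 in HELLS KO, with no overlap of the libraries and no call (log2 fold change −0.22). ABL1 did not overlap either and was the higher in HELLS KO, at 24.3 and 30.3 CPM, without a call (log2 fold change 0.32). RUNX1, at 0.27, overlapped and was not called. KIT was called as lower in HELLS KO. SPI1 had no count in any library, PTPRC, MPO and ITGAM had at most 2 in each, and GATA1, LYZ, CD34 and CD33 had at most 19.

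The gene models place HELLS on the plus strand of chr10:94545329-94613905 (GRCh38, GENCODE v44), with 22 exons and 838 codons in its principal transcript. CDCA7 lies on the plus strand at chr2:173354820-173368997 and codes for 450 codons in 10 exons. CDCA7L lies on the minus strand at chr7:21900899-21945903 and codes for 454 codons, also in 10 exons. ZBTB24 lies on the minus strand at chr6:109460632-109483239, with 7 exons and 697 codons, and DNMT3B on the plus strand at chr20:32762385-32809359, with 23 exons and 853 codons.

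The exon that was edited in HELLS KO is shown because it fixes what the gene's counts can and cannot reveal. Exon 3 covers chr10:94554126-94554248 (GRCh38, plus strand), is coding throughout its 123 bases, holds the codons 52 to 92 and is part of 6 of the 7 coding transcripts. The reference sequence is printed with 3 triplets in capitals, which read as stop codons once the frame is shifted by an inserted base ahead of them.
HELLS exon 3: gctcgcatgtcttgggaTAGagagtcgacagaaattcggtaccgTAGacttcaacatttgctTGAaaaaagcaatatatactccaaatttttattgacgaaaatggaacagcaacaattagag

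The place and letter of the inserted base in the clone were not used here, so every option was written out. There were 496 ways to add 1 base at the 124 sites of the exon. All of them brought a first stop between codons 56 and 110, in exon 3 for 264 and in exon 4 for 232. That stop lay at least 2092 coding bases ahead of the last exon junction. A gene-level count reads the transcript whether or not it carries the extra base, so the level of HELLS does not by itself tell the genotypes apart, and it is not a check on the clone.

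Promoter windows are shown for the 2 members whose upstream sequence held letters of ZBTB24 or E2F, with the ZBTB24 match of CDCA7 and the E2F matches of HELLS in capitals. These are the 250 bases before the RefSeq start (GRCh38.p14), both on the plus strand, chr10:94545538-94545787 for HELLS and chr2:173354622-173354871 for CDCA7.
HELLS upstream: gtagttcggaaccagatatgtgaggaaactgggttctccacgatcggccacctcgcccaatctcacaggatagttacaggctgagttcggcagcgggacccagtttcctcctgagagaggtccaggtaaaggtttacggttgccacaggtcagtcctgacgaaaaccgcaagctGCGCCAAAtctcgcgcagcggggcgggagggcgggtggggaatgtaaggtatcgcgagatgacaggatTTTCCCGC
CDCA7 upstream: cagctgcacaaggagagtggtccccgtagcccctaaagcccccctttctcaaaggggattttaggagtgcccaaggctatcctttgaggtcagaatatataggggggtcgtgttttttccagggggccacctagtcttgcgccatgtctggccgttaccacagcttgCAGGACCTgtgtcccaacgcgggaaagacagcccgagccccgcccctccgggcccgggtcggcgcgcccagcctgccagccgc

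The window of CDCA7 held CAGGACCT, the letters bound by ZBTB24, starting 83 bases before the start site. On both strands together, 354 of 27305 promoters of the same length held these letters (1.30%). The HELLS window held E2F letters at 76 and 8 bases before the start, shown as GCGCCAAA and TTTCCCGC. E2F factors drive S-phase genes, and the letters searched (TTTCCCGC, TTTGGCGC, TTTCGCGC and TTTGCCGC, both strands) occurred in 761 of the promoters (2.79%). CDCA7 also held an E2F match, GCGGGAAA, 65 bases before its start, left in lower case in the sequence. Neither motif occurred in the windows of CDCA7L, ZBTB24 or DNMT3B, which says only that these letters are not in these windows. The window of DNMT3B ended at a RefSeq start of 32779852, inside the gene and downstream of the start of the principal transcript at 32762385, so the sequence ahead of that transcript was not searched. CCAAT, the letters of the factor NF-Y, was also searched on both strands and occurred in 33.0% of the promoters. It was found 194 bases before the start of HELLS, left in lower case, and 113 bases before that RefSeq start of DNMT3B, and not in the other members.

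None of the 5 transcripts passed the test between HELLS KO and HAP1 cells. A call needed an adjusted p below 0.05 and a log2 fold change of at least 1 in size, in edgeR's quasi-likelihood test with p-values adjusted over the 17925 tested genes by the Benjamini-Hochberg method. By that rule 269 genes were higher and 129 lower in HELLS KO, 2.22% of those tested, and 2.26% passed on the adjusted p alone. All 5 members entered the test. The libraries of the genotypes overlapped for each of them, whereas 10.1% of all tested genes had CPM that did not overlap between HAP1 and HELLS KO.

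HELLS, the gene that was edited, had 1444, 1488 and 3671 counts in HAP1 replicates 1, 2 and 3 and 1410, 1375 and 2802 in the HELLS KO replicates. After TMM scaling for library composition these were 102, 108 and 153 CPM in HAP1 and 96.9, 96.3 and 115 CPM in HELLS KO. The mean was 121 ± 28.0 CPM (SD, n = 3) in HAP1 and 103 ± 10.7 in HELLS KO. HELLS KO was the lower in each pair of equal replicate number, but its replicate 3 lay above HAP1 replicates 1 and 2. The log2 fold change of HELLS was −0.24 (SE 0.18, 95% interval −0.66 to 0.19; edgeR's quasi-likelihood test, unadjusted p = 0.229, adjusted p = 1.0). That interval runs from −36.6% to 13.7%. Within replicates 1 and 2 alone the difference was −0.14, and within replicate 3 it was −0.41, a value from 1 library per genotype and so without a test. Without HAP1 replicate 3 it was −0.03, with the high replicate 3 of HELLS KO still in the fit.

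CDCA7, the partner that targets HELLS to chromatin, was covered by 2588, 2460 and 4007 counts in the HAP1 libraries, against 2473, 2668 and 4131 in the knockout. The scaled levels were 182, 179 and 167 CPM in HAP1 cells, and 170, 187 and 170 CPM in HELLS KO cells. The means of 176 ± 7.91 and 175 ± 9.80 CPM lay inside each other's spread, with the highest library in HELLS KO and the lowest in HAP1. The log2 fold change was −0.00 (SE 0.10, 95% interval −0.24 to 0.23, or −15.4% to 17.5%; edgeR's quasi-likelihood test, unadjusted p = 0.968, adjusted p = 1.0). Among all tested genes, the absolute fold change of CDCA7 stood at percentile 2.82.

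CDCA7L, the paralog of CDCA7, gave 1106, 1084 and 1955 counts in HAP1 cells, compared with 1026, 1276 and 2053 in HELLS KO cells. These were 77.8, 78.9 and 81.5 CPM in HAP1 and 70.5, 89.3 and 84.3 CPM in HELLS KO. The HAP1 libraries were close together, and the HELLS KO libraries lay on both sides of them, 1 below and 2 above. The means were 79.4 ± 1.91 and 81.4 ± 9.74 CPM, with a log2 fold change of 0.04 (SE 0.13, 95% interval −0.27 to 0.34; edgeR's quasi-likelihood test, unadjusted p = 0.787, adjusted p = 1.0). The interval runs from −16.9% to 26.5%.

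A shift between the paralogs was examined as the ratio of CDCA7L to CDCA7 in FPKM (fragments scaled by gene length and library size). The ratio was 0.413, 0.426 and 0.471 in HAP1 and 0.401, 0.462 and 0.480 in HELLS KO. The genotypes overlapped, with a difference of 0.03 on the log2 scale (exact permutation test, two-sided, p = 0.9). For 3 libraries against 3 the smallest p this test can give is 0.1. The ratio of CDCA7 to HELLS was 4.62, 4.26 and 2.82 in HAP1 and 4.52, 5.01 and 3.80 in HELLS KO, which also overlapped (difference 0.21 on the log2 scale, exact permutation test, two-sided, p = 0.6). The authors' length was 3.24 times the principal transcript for HELLS and 1.42 times for CDCA7. The size of these ratios therefore depends on the length used, whereas their difference between genotypes does not. Without HAP1 replicate 3, the library with the lowest of these ratios, the difference was −0.01, with HELLS KO replicate 3 still included. Within replicates 1 and 2 alone it was 0.10.

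ZBTB24, the activator of CDCA7, gave 794, 754 and 2140 counts in HAP1 cells, compared with 847, 1000 and 2173 in HELLS KO cells. The scaled level was 55.8, 54.9 and 89.2 CPM in HAP1 and 58.2, 70.0 and 89.3 CPM in HELLS KO. In both genotypes replicate 3 stood above the other libraries, and it was nearly equal between the genotypes. The means were 66.6 ± 19.6 and 72.5 ± 15.7 CPM, with a log2 fold change of 0.12 (SE 0.24, 95% interval −0.45 to 0.69; edgeR's quasi-likelihood test, unadjusted p = 0.633, adjusted p = 1.0). In this fit, which has no batch term, it was the least precise of the 5, with an interval from −26.7% to 61.2%. With a batch term the SE of ZBTB24 was 0.092, beside 0.093 for CDCA7L and 0.094 for DNMT3B. Without HAP1 replicate 3 the log2 fold change was 0.39 (edgeR's quasi-likelihood test, adjusted p = 0.48), with the high replicate 3 of HELLS KO still in the fit. Within replicates 1 and 2 alone it was 0.19.

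DNMT3B, the methyltransferase most often mutated in the syndrome, gave 1424, 1321 and 2036 counts in HAP1 cells, compared with 1135, 1358 and 2163 in HELLS KO cells. These were 100.1, 96.1 and 84.9 CPM in HAP1 and 78.0, 95.1 and 88.8 CPM in HELLS KO. The lowest library was HELLS KO replicate 1, and the other HELLS KO libraries lay within the range of HAP1. The means were 93.7 ± 7.91 and 87.3 ± 8.63 CPM, with a log2 fold change of −0.10 (SE 0.13, 95% interval −0.40 to 0.20, or −24.5% to 15.0%; edgeR's quasi-likelihood test, unadjusted p = 0.458, adjusted p = 1.0).

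**Figure D1:**
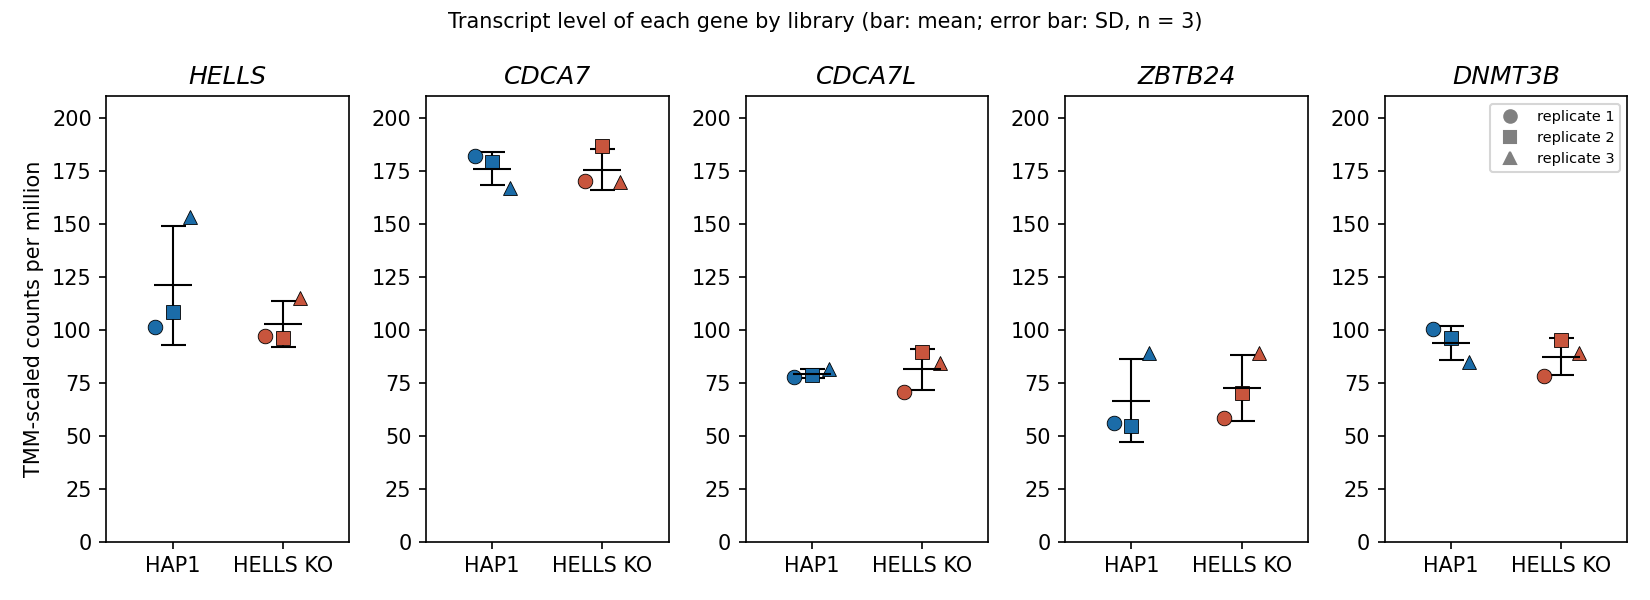
Level of each gene in every library, in TMM-scaled CPM on a linear axis from 0. Points are libraries (circle, square and triangle for replicates 1, 2 and 3), the long bar is the mean and the error bar the SD of 3 libraries. HAP1 and HELLS KO overlap for all 5 genes, and replicate 3 is the highest library of its genotype for HELLS (153 and 115 CPM) and ZBTB24 (89.2 and 89.3 CPM).

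No 95% interval of a member reached a 2-fold change on the scale of these counts. When the replicate number entered the model as a block, the intervals became narrower and still no member passed. HELLS then had a log2 fold change of −0.22 (SE 0.09, 95% interval −0.42 to −0.01; edgeR's quasi-likelihood test, unadjusted p = 0.0395, adjusted p = 0.37). The blocked interval was −11.0% to 11.7% for CDCA7, −11.9% to 18.4% for CDCA7L, −6.47% to 28.8% for ZBTB24 and −20.6% to 9.54% for DNMT3B.

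**Figure D2:**
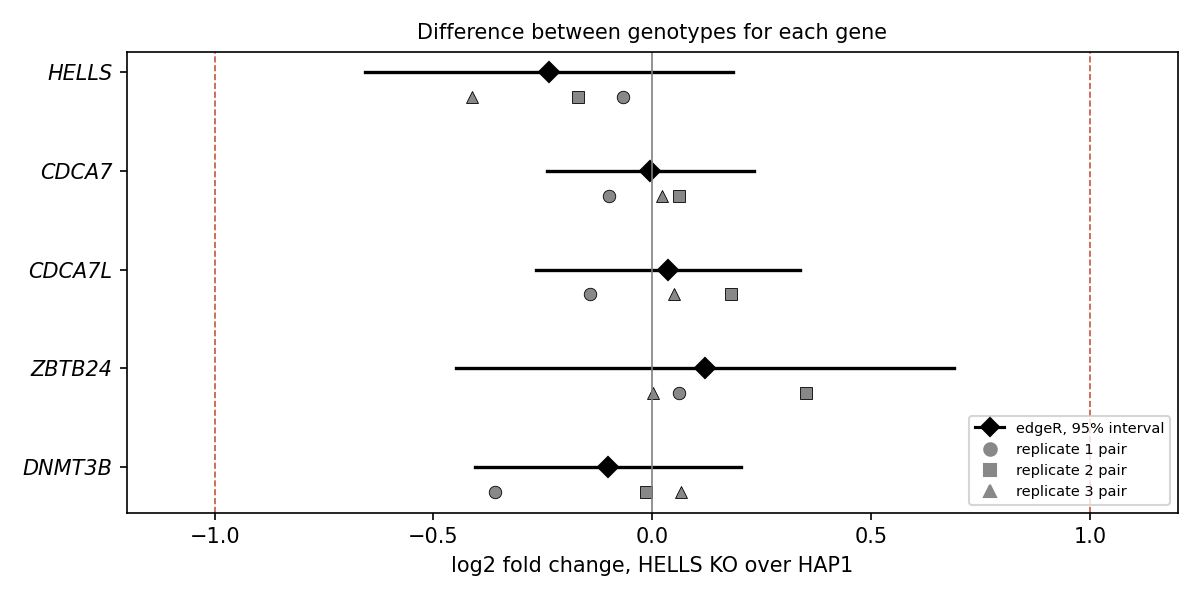
Difference between genotypes for each gene, as the log2 fold change of HELLS KO over HAP1. Diamonds are the edgeR estimates with 95% intervals, grey symbols the 3 pairs of equal replicate number, and dashed lines the change of 1 needed for a call. All 5 intervals cross 0, and HELLS, at −0.24, is the only gene with all 3 pairs below 0, while the pairs of ZBTB24 lie at or above 0.

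The counts were made after duplicate reads had been removed, and the table bore on how large a change could be seen at the level of these genes. GAPDH, a glycolytic enzyme used as a standard of abundant expression, averaged 116 CPM without TMM scaling in HAP1, fewer than CDCA7, and the highest average of any gene was 785, for FLNA (filamin A). The mean count per base of gene length was 0.200 for HELLS, 0.233 for ZBTB24, 0.340 for DNMT3B, 0.348 for CDCA7L and 0.777 for CDCA7, and no tested gene exceeded 1.96. Calls between the genotypes became rare with this measure. They made up 6.08% of genes under 0.03 counts per base, but 0.559% between 0.1 and 0.3, where HELLS and ZBTB24 lie. They were 0.146% of genes between 0.3 and 0.6, the range of CDCA7L and DNMT3B, and 0.0889% between 0.6 and 1, the range of CDCA7. The median absolute log2 fold change fell in the same order, from 0.37 to 0.08, 0.05 and 0.03. The part of duplicate removal in this was not tested, nor was that of counting error, which falls as counts rise. The fold changes of the 5 genes may be smaller in these counts than in the RNA, which this trend by itself does not show.

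The levels of the members among themselves were read per length, in FPKM as the authors calculated it. CDCA7 was the highest, at 45.9, 45.1 and 41.5 FPKM in HAP1 and 42.5, 46.3 and 42.6 in HELLS KO, and its lowest library exceeded every library of the other members. DNMT3B (20.0 ± 1.83 in HAP1 and 18.5 ± 1.75 in HELLS KO) and CDCA7L (19.2 ± 0.321 and 19.6 ± 2.28) followed, and their libraries overlapped in both genotypes. ZBTB24 (11.9 ± 3.39 and 12.9 ± 2.84) and HELLS (11.7 ± 2.62 and 9.95 ± 1.09) came last and overlapped too. Among the 24956 genes with FPKM, the members stood between percentile 71.4, for HELLS, and percentile 97.6, for CDCA7. These are percentiles within each library, averaged over the libraries.

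The place of HELLS in this order depended on the length used. The authors' length for HELLS was 10145 bases, which is 3.24 times its principal transcript of 3128 bases. Per kilobase of the principal transcript, HELLS was at 38.7 ± 8.95 CPM in HAP1 cells and 32.9 ± 3.41 in the knockout and ranked second after CDCA7, which had 63.4 ± 2.85 and 63.2 ± 3.53. In HELLS KO the libraries of HELLS and CDCA7L overlapped on this scale. CDCA7L, DNMT3B and ZBTB24 followed in that order in both genotypes, at 27.5 ± 0.663, 21.6 ± 1.83 and 12.1 ± 3.56 CPM per kilobase in HAP1. Which transcripts of HELLS the cells make was not measured by a gene-level count.

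Replicate 3 stood apart from replicates 1 and 2 for HELLS and ZBTB24 in both genotypes. In a model with genotype and batch, replicate 3 was higher by 0.40 on the log2 scale for HELLS (SE 0.08; edgeR's quasi-likelihood test, adjusted p = 0.0057) and by 0.58 for ZBTB24 (SE 0.09; adjusted p = 0.0028). Both were larger in size than the difference between the genotypes over all libraries for any of the 5 genes, at most −0.24, for HELLS. Within replicate 3 alone, the genotypes differed by −0.41 for HELLS. CDCA7 (−0.09, adjusted p = 0.25), CDCA7L (0.07, adjusted p = 0.59) and DNMT3B (−0.08, adjusted p = 0.51) did not pass the same test. With 2 of the 5 members passing, the background was 8796 of the tested genes (49.1%), 4229 higher and 4567 lower in replicate 3. With a change of at least 1 on the log2 scale as well, it was 8.26% of the tested genes and no member.

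In HAP1, replicate 3 of HELLS was 1.46 times the mean of replicates 1 and 2, and in HELLS KO 1.19 times. For ZBTB24 these values were 1.61 and 1.39, and for CDCA7 they were 0.925 and 0.951. The difference of replicate 3 went with counts per base across all genes. Its median was 0.15 on the log2 scale over 5370 genes with 0.1 to 0.3 counts per base, −0.09 over 3431 with 0.3 to 0.6, −0.33 over 1125 with 0.6 to 1, and −0.76 over the 17 above 1.5. By the authors' length, HELLS and ZBTB24 lie in the first of these ranges and CDCA7 in the third. Per base of the principal transcript HELLS had 0.650 counts and CDCA7 1.10, so the value of HELLS depended strongly on the length. The ranges were built with the authors' length for every gene, so values on the other length cannot be placed in them. The part of sequencing depth and of the batch in the difference of replicate 3 cannot be told apart, since replicate 3 is also the deeper library of each genotype.

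**Figure D3:**
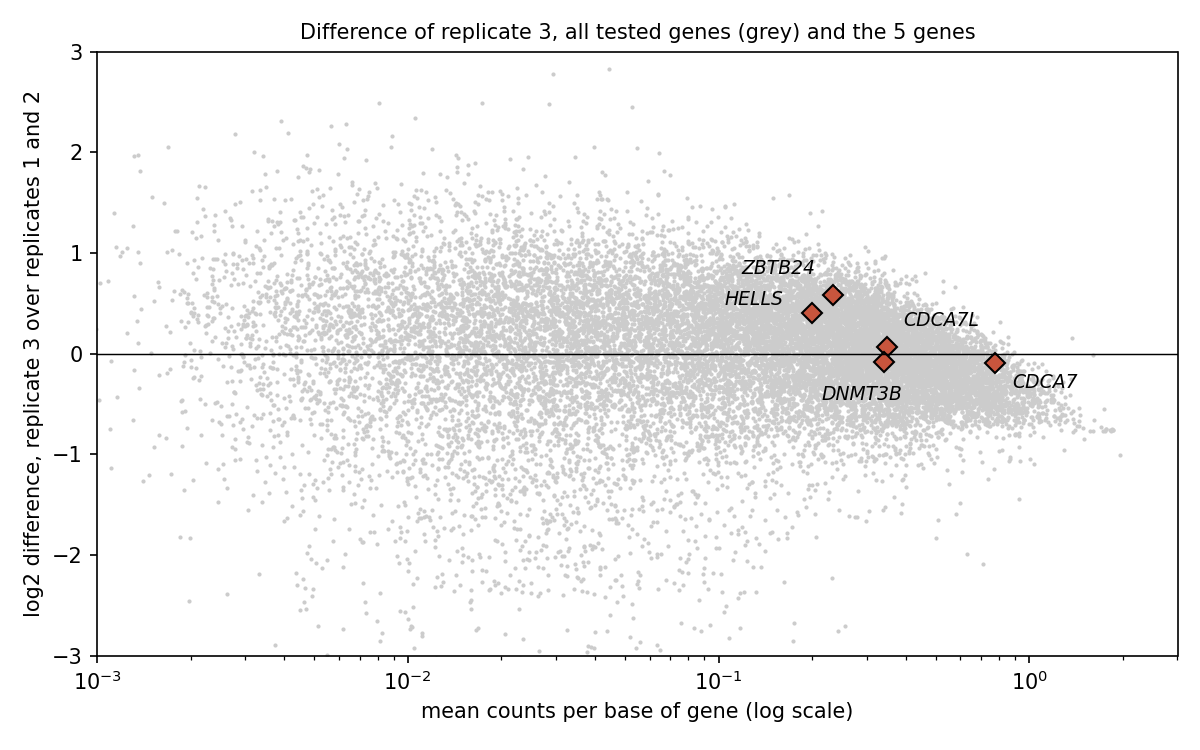
Difference of replicate 3 from replicates 1 and 2 in a model with genotype and batch (log2 scale, vertical axis) against mean counts per base of gene (log axis). Grey points are all tested genes within the axis range and red diamonds the 5 members. HELLS (0.40) and ZBTB24 (0.58) lie above 0, DNMT3B, CDCA7L and CDCA7 lie near 0, and the cloud bends below 0 at high counts per base.

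Some reads of the members may belong to neighbours. The span of ZBTB24 shares 5337 bases with MICAL1 on the same strand, a gene with 1541 to 2219 counts per library and a log2 fold change of −0.02. CDCA7L overlaps DNAH11, an axonemal dynein, by 941 bases on the opposite strand, and DNAH11 had 36 to 207 counts. HELLS lies over a non-coding gene on its own strand across 33800 bases, which had 2 to 14 counts, and CDCA7 over a pseudogene on the opposite strand with 4 to 11 counts. No overlap was found for DNMT3B. The strand setting of the counting is not given in the sources used here, so for CDCA7L and CDCA7 reads of the opposite gene cannot be set aside. CDCA7 and CDCA7L shared no stretch of 31 bases between their transcripts, so reads of one paralog had no exact match of that length in the other. With other genes, on either strand, CDCA7L shared 20.6% of its stretches, 804 of them with DNAH11. The share was 6.17% for HELLS, 6.59% for ZBTB24, 0.784% for CDCA7 and 0.0140% for DNMT3B. How many reads this concerned was not measured.

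The genes whose profile over the 6 libraries was most like that of a member were found by the root mean square difference of centred log2 CPM, among 11633 genes with a mean of at least 10 CPM. They were ZNF850 (0.0497), SLC35G2 and LEPROT for HELLS, and MAU2 (0.0089), SRPRA and USP19 for CDCA7. For CDCA7L they were ITPRIP (0.0195), FAM219B and PHF8, for ZBTB24 C5orf24 (0.0166), TTC26 and CAPN7, and for DNMT3B DENND4B (0.0151), NDE1 and MAP3K12. No member was among the 3 genes nearest to another member. Among the members themselves, CDCA7 and DNMT3B were the closest (0.0826) and ZBTB24 and DNMT3B the farthest (0.352), with HELLS nearest to ZBTB24 (0.215). Many other genes lay closer. Among the 11633, DNMT3B ranked 1064 in nearness to CDCA7, CDCA7 ranked 217 to DNMT3B, and ZBTB24 ranked 3172 to HELLS.

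None of the other genes of the pathway passed the test. A list of 17 partners in DNA methylation, remodelling and the control of the members had 15 tested genes. No gene of that list was called, against 2.22% of all tested genes, and none reached an unadjusted p under 0.05. The median log2 fold change was 0.02, beside 0.01 over all tested genes, and the values ran from −0.09 for MYC to 0.13 for DNMT3A, the other de novo methyltransferase. E2F3 (0.09) and HDAC2 (0.05) came next to the top, and DNMT1 (−0.03) and XRCC6 (−0.02) next to the bottom. DNMT1, which copies methylation marks after replication, was at 348 CPM in HAP1 cells and 341 in the knockout, and UHRF1, which recruits it to hemimethylated DNA, had 204 and 201 (−0.02). Of the genes not tested, DNMT3L gave 4, 7 and 7 counts in the HAP1 libraries, against 0, 2 and 2 in the knockout. PRDM9, a meiotic methyltransferase known to act with HELLS in germ cells, had no count in HAP1 and 0, 2 and 10 in HELLS KO.

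Of 5 further genes known as targets of ZBTB24, all were tested and none was called. CAMKMT had a log2 fold change of 0.00, OSTC of 0.02, TAF6 of −0.04, RNF169 of −0.06 and CDC40 of −0.07. RNF169, a ubiquitin ligase of the double-strand break response, was imprecise (SE 0.46), with 759, 620 and 2100 counts in HAP1 cells, against 354, 924 and 2185 in the knockout. HELLS, CDCA7 and DNMT3B are themselves expressed with the cell cycle, so S-phase genes were read beside them. All 33 genes of that list were tested and none was called, with 23 values above 0, 10 below and a median of 0.03. They ran from −0.05 for MCM6, a subunit of the replicative helicase, to 0.23 for CCNE2, a cyclin of S-phase entry. Next to these stood EXO1 (−0.05) and PRIM1 (−0.04) at the lower end and CLSPN (0.12) and USP1 (0.10) at the upper end. The summed level of the S-phase list was 4566 to 4803 CPM in HAP1 and 4493 to 5027 CPM in HELLS KO.

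**Figure D4:**
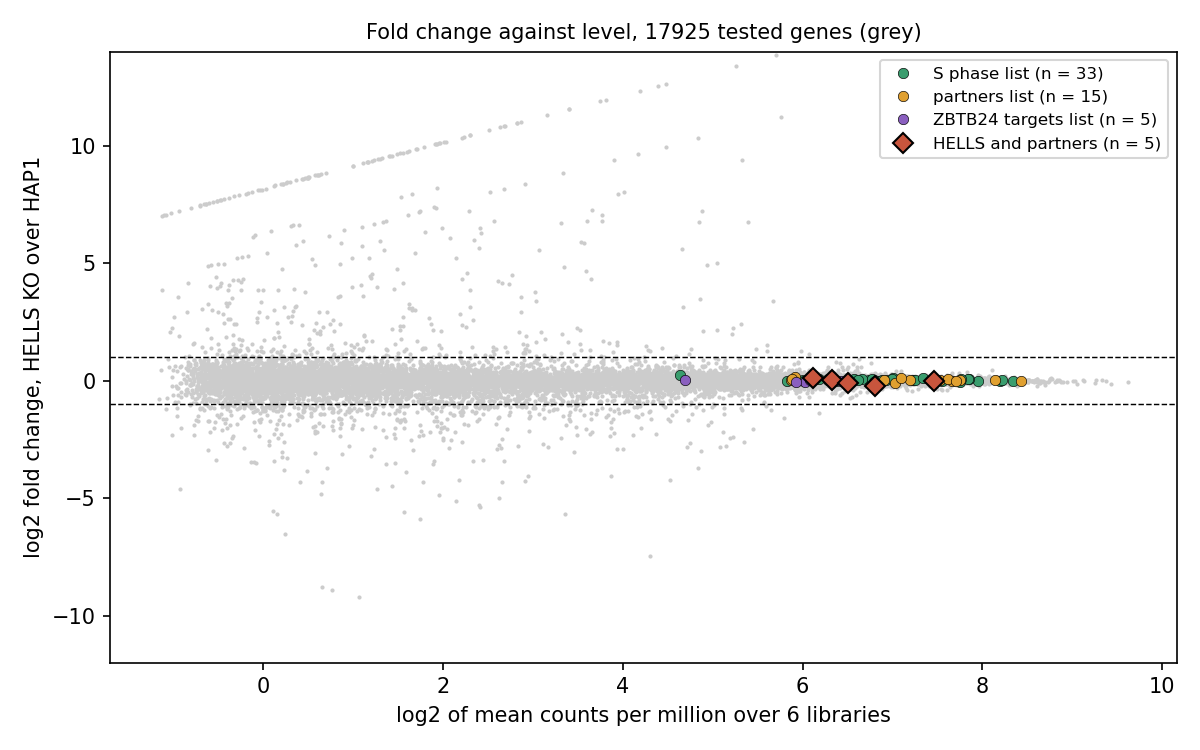
Log2 fold change of HELLS KO over HAP1 against the log2 of the mean CPM over 6 libraries for 17925 tested genes (grey, those within the axis range). Coloured points are the members and the lists of partners, ZBTB24 targets and S-phase genes, and dashed lines mark the change of 1 needed for a call. All coloured points lie between the lines, within −0.24 (HELLS) and 0.23 (CCNE2), at levels where few grey points cross them.

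Genes that DNA methylation is known to silence outside the germline were read beside the members. Of 16 such genes, 5 had enough counts to be tested, of which 1 was called, as lower. DAZL, an RNA-binding protein of germ cells, fell, with 572, 534 and 1101 counts in HAP1 cells, against 212, 261 and 489 in the knockout. The mean was 41.7 CPM in HAP1 and 17.6 in HELLS KO, and every HELLS KO library lay below every HAP1 library (log2 fold change −1.24, SE 0.17; edgeR's quasi-likelihood test, adjusted p = 0.013). The call of DAZL was lost without HAP1 replicate 1 (adjusted p = 0.055) and without HELLS KO replicate 2 (adjusted p = 0.090). TDRD6, a tudor protein of germ granules, gave 0, 0 and 6 counts in HAP1 cells, against 14, 22 and 56 in the knockout, and missed the threshold (edgeR's quasi-likelihood test, adjusted p = 0.11). With the replicate block TDRD6 was called as higher (log2 fold change 3.99, adjusted p = 0.012 in the same test). SYCP3 (0.46), STAG3 (0.20) and TEX14 (−0.09), the other tested genes, did not pass. TDRD9 and MAEL, which act in piRNA silencing of transposons, had no count in any HAP1 library. TDRD9 had 10, 8 and 44 counts in HELLS KO and MAEL 2, 6 and 32, too few to enter the test. Of the other untested genes, TEX101 went from 2, 22 and 26 counts to 6, 2 and 11, PIWIL2 from 2, 8 and 16 to 2, 6 and 16, and TEX11 from 2, 4 and 12 to 4, 10 and 17. DDX4, SYCP1, SYCE1 and SLC25A31 had at most 4 counts in any library, and TDRD1 and BRDT had none.

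Some markers of epithelial and blood cells differed between the clones. EPCAM, an epithelial adhesion molecule, fell from 104, 107 and 178 counts in the HAP1 libraries to 2, 6 and 5 in the knockout (log2 fold change −4.88, SE 0.39; edgeR's quasi-likelihood test, adjusted p = 0.0015). KRT8, a keratin of simple epithelia, fell from 70.0 to 11.4 CPM (log2 fold change −2.61, SE 0.22; adjusted p = 0.0015 in the same test). KRT18, the usual partner of KRT8, had a value of −0.19 and did not pass. KIT, the receptor of stem cell factor, fell from 319, 270 and 933 counts in the HAP1 libraries to 32, 40 and 138 in the knockout (log2 fold change −2.90, SE 0.43; edgeR's quasi-likelihood test, adjusted p = 0.015). That call of KIT was lost without HELLS KO replicate 1 (adjusted p = 0.069) or replicate 2 (adjusted p = 0.11), and with a filter of at least 10 counts in every library (adjusted p = 0.053). The summed level of 4 epithelial markers was 101 to 145 CPM in HAP1 and 48.3 to 65.0 in HELLS KO, and CDH1 had at most 6 counts. The summed level of 6 fibroblast markers was 145 to 156 and 63.2 to 79.1 CPM, with DCN and LUM at 0 in every library. PDGFRA, a growth factor receptor of mesenchymal cells, went from 1046, 915 and 2619 counts to 268, 344 and 975, without overlap in CPM. It missed the threshold (log2 fold change −1.59; edgeR's quasi-likelihood test, adjusted p = 0.061) and was called with the replicate block (−1.63, adjusted p = 0.00024). DESeq2 (adjusted p = 2.1e-05), a batch term, upper-quartile scaling and a fit without a filter also called PDGFRA. A filter of at least 10 counts in every library and limma on FPKM did not. With each library left out, only the fit without HELLS KO replicate 3 called PDGFRA (edgeR's quasi-likelihood test, adjusted p = 0.019). The other fits of that kind gave adjusted p-values of 0.074 to 0.31 in the same test. COL1A1, a collagen, had a value of −0.58 and did not pass, with 854 and 868 counts in the replicate 3 libraries. The 13 blood markers summed to 224 to 261 CPM in HAP1 and 215 to 221 CPM in HELLS KO. Of the 6 blood markers tested, 4 had a log2 fold change above 0 and 2 below. The part of these marker differences in the results was not tested.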

How the data were processed

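RNA-seq was compared between HAP1 and HELLS KO, 3 libraries each, grouped by genotype. Per the paper's methods and the submitters' processing notes, the authors aligned paired reads to GRCh38 (STAR 2.7.3a), kept non-duplicated reads of high mapping quality and deposited raw counts per gene (featureCounts 2.0.6). The authors also deposited FPKM for 24956 genes, computed from the counts with a union gene length. The annotation version and strand setting are not given in the sources used here. The members and gene lists were chosen with earlier results of these data known.

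Counts were tested with edgeR 4.0.16 (R 4.3.3), with TMM scaling, filterByExpr by genotype and the quasi-likelihood test without a block, Benjamini-Hochberg adjustment, and intervals from the SE. Alternatives were DESeq2 1.42.0, limma 3.58.1 on log2(FPKM + 1), other scalings and filters, a replicate block, a batch term, and each library left out. The size of the batch difference, replicate 3 alone, the block on the ratios and the principal transcript length were chosen after seeing the data. Deviations of equal-numbered replicates from their group means correlated at 0.47, 0.22 and 0.81. Each was over 0.1, the cut-off set for using the numbers as a block, which cannot establish that the libraries are pairs. HAP1 replicate 2 with HELLS KO replicate 1 (0.66) and HAP1 replicate 1 with HELLS KO replicate 2 (0.37) also correlated, so the data set replicate 3 apart and do not tell replicates 1 and 2 apart. No 2 libraries of a genotype agreed within sampling noise.

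The genes named were the members, from each list every called gene or otherwise the 3 largest and 3 smallest fold changes, and the 3 nearest profiles per member. UHRF1, DNMT3L, PRDM9, TDRD6, TDRD9, MAEL, the other germline genes without a call, KRT18, FLNA, GAPDH and the genes of the marker lists fall outside that rule and were named after their values were seen. Likeness used a pseudocount of 0.5 CPM. Exact permutation tests were two-sided over 3 against 3 libraries. Sequences were read from GENCODE v44 (GRCh38) and RefSeq (GRCh38.p14). Library totals of 13641237 to 24400187 counts set the precision, and a count of 3 is 0.123 to 0.220 CPM, counting error only.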

Additional observations from a re-analysis of the deposited data

How the results depend on the processing

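No member was called under any of the 16 alternatives with a test, the lowest adjusted p being 0.23, for HELLS with a batch term. HELLS stayed below 0 throughout, from −0.41 to −0.03. Values near 0 changed sign. CDCA7 was 0.00031 with a filter of at least 10 counts, 0.023 in replicate 3 alone and −0.052 to 0.019 with each library left out. With each library left out, CDCA7L ran from −0.036 to 0.12 and ZBTB24 from −0.064 to 0.39, and DNMT3B was 0.066 in replicate 3 alone. The ratio of CDCA7L to CDCA7 ran from −0.019 to 0.11 on the log2 scale and that of CDCA7 to HELLS from −0.0079 to 0.35.

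The number of genes called between the genotypes, 398, was 673 with DESeq2, 615 without a filter, 77 with at least 10 counts in every library, 630 with the replicate block and 656 with a batch term. It was 198 with limma on log2(FPKM + 1), 196 with the filter there, and 152 (without HELLS KO replicate 2) to 449 with each library left out. The cause was not tested. Pairing by the replicate block changed no call of a member, called TDRD6 and PDGFRA, and gave ratio differences of 0.03 (exact permutation p = 0.75) and 0.21 (p = 0.5). MAEL, TDRD6 and TDRD9, not called in the report, were called with DESeq2 (adjusted p = 0.022, 0.0027 and 0.00059) and without a filter. TDRD6 was also called with the replicate block (adjusted p = 0.012), with the batch term (0.011) and without HAP1 replicate 3 (0.035).

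Depth, duplicate removal and 3 libraries per genotype limit what can be seen, and protein was not measured here.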
